A study of Mus musculus with 6 samples.

Results

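The genes described here encode the matrix metalloproteinases (MMPs), the ADAMTS proteases with the related ADAMTS-like proteins, and the tissue inhibitors of metalloproteinases (TIMPs). Membership followed a rule on names, which took every protein-coding gene whose symbol is Mmp, Adamts, Adamtsl or Timp followed by a number. The family was chosen with earlier results of these data known. The rule found 51 of the 24061 genes in the table, which are 23 Mmp, 19 Adamts, 5 Adamtsl and 4 Timp genes, and the annotation holds no other gene that matches it.

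The samples were dorsal skin of female C57BL/6 mice, 8 to 14 weeks old by the study's methods, which received intradermal injections every day for 14 days. Control mice received 50 μl of saline, and treated mice the same volume of saline with 20 μg of recombinant interleukin-31 (rIL-31), an itch-related cytokine made by type 2 helper T cells. Each group had 3 RNA-Seq libraries, and both groups shared the strain, the shaved back and the injections. Each library was made from a homogenate of whole skin, in which epidermis, hair follicles, dermis, fat, muscle, vessels and immune cells are mixed. The sources do not say that the samples came from separate mice, and p-values then speak only of the spread among the samples sequenced.

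MMPs and ADAMTS proteases are secreted or membrane-bound enzymes that use a zinc ion to cut proteins outside the cell. MMPs are made with a propeptide whose cysteine covers the zinc until the propeptide is removed. Together they cut collagens, elastin, laminins, fibronectin and the large proteoglycans, and they also release or destroy growth factors and chemokines. TIMPs are small proteins that bind the active site and block it. In skin these genes are known for their part in wound repair, hair cycling and the turnover of the dermis.

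The 6 libraries held 21710679 to 25552684 counts. Levels are given as depth-scaled counts (CPM), with library sizes adjusted by TMM, the trimmed mean of M values, and 1 count was worth 0.0389 to 0.0466 CPM. The groups were compared by the quasi-likelihood test of edgeR over the 16371 genes with enough counts. The words rose and fell are used where the Benjamini-Hochberg adjusted p (FDR) was below 0.1. For the GC trend, each gene's log level in a library was taken relative to its mean over all 6 libraries. The libraries differed in how these deviations ran with GC content across the 16216 tested genes that had a value. The Spearman correlation was -0.234 to -0.107 in the saline libraries, 0.368 and 0.263 in rIL-31 replicates 1 and 2, and -0.236 in rIL-31 replicate 3. Each value is thus relative to the other libraries. Genes without a name in the annotation took 4.74% to 6.03% of the counts in saline libraries and 0.913% to 2.84% in rIL-31 libraries. Whether the groups also differed in preparation cannot be told apart from the effect of the injections.

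Of the 51 genes, 46 had enough counts for the test, 7 rose, 4 fell and 35 did not pass. The 7 that rose were Timp1, Mmp10, Adamts15, Mmp19, Adamts1, Timp3 and Mmp3, and the 4 that fell were Mmp12, Adamts12, Adamts18 and Adamts9. Those that rose were 15.2% of the tested members, where 4.51% of all tested genes rose, and those that fell were 8.7%, where 3.73% of all tested genes fell. More than 2-fold changes at an FDR below 0.1 were found for 3 members that rose and 2 that fell, beside 1.15% and 0.696% of all tested genes. The 3 rIL-31 libraries all lay above the 3 saline libraries for 12 members and all below them for 8, beside 12.8% and 12.9% of all tested genes. The median log2 fold change over the 46 was 0.16, and that over all tested genes was 0.01. In whole skin, fewer cells of a type and less RNA per cell cannot be told apart.

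Among the fits that left out a library, the largest counts came without rIL-31 replicate 3, the treated library whose GC trend was nearest that of the saline libraries. Without it, 12 members rose (26.1% of those tested, beside 12.3% of all genes) and 6 fell (13.04%, beside 11.8%). Without saline replicate 1, 2 or 3 or rIL-31 replicate 1, 2 members fell, which were Mmp12 and Adamts12 (4.26% to 4.35% of those tested, beside 1.02% to 1.98% of all genes), and 5 or 6 rose (10.6% to 13.04%, beside 1.47% to 2.46%).

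**Figure D1:**
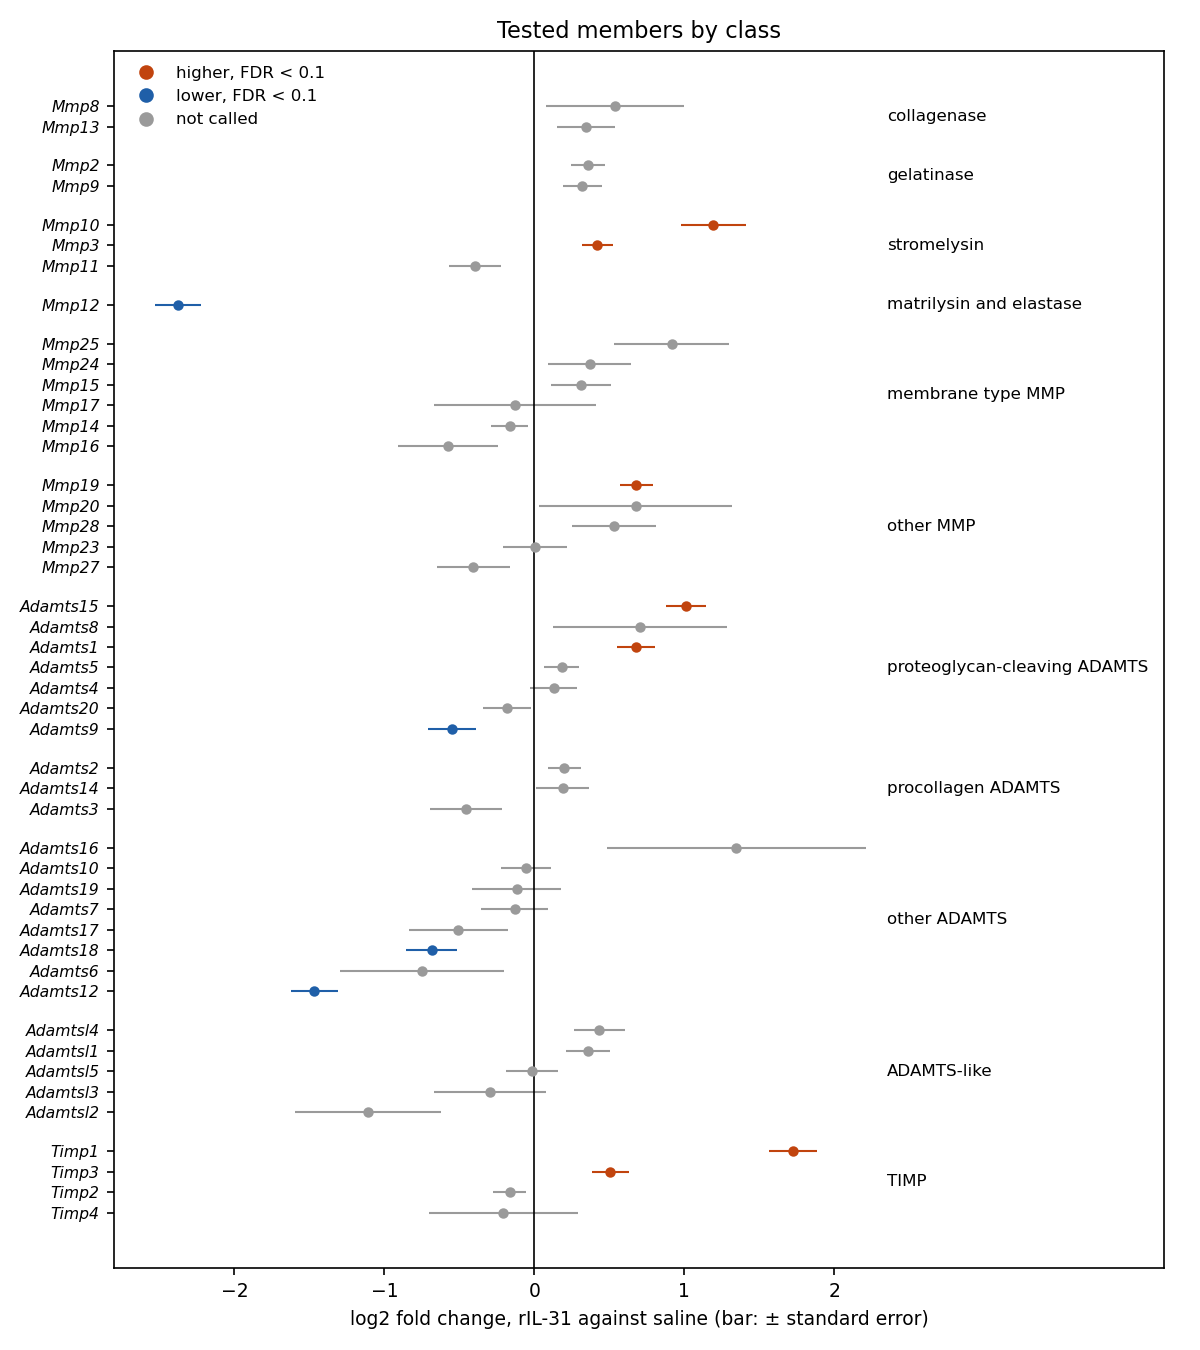
Log2 fold change of each of the 46 tested genes, rIL-31 against saline (3 libraries each), with bars of ± 1 standard error, grouped by class. The 7 genes that rose are in red, the 4 that fell in blue, and the other 35 in grey. Mmp12 lies farthest to the left at -2.38 and Timp1, of the coloured genes, farthest to the right at 1.72.

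Among the inhibitors, Timp1 showed the largest rise of all members that passed the test. Timp1 encodes a secreted inhibitor of most soluble MMPs and lies on chromosome X from 20870166 to 20874737 (GRCm38). Its level was 16.8, 18.2 and 17.8 CPM in the saline libraries and 71.0, 46.9 and 56.6 CPM in the rIL-31 libraries. Every treated library was thus well above every control, although the treated libraries differed more among themselves. The log2 fold change was 1.72 (standard error, SE, 0.16), a 3.30-fold rise, with an FDR of 0.0001466.

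Timp3, whose protein stays bound to the matrix and also inhibits several ADAMTS proteases, rose less. It stood at 367, 329.9 and 314 CPM in saline-treated skin and at 403, 511 and 521 CPM in rIL-31-treated skin. Here rIL-31 replicate 1 was close to the highest saline library and the other 2 were clearly above it. The log2 fold change was 0.51 (SE 0.12) with an FDR of 0.04394, which rose to 0.2209 without saline replicate 2, 0.204 without saline replicate 3 and 0.1457 without rIL-31 replicate 2, with log2 fold changes of 0.45 to 0.49 in these fits. On the opposite strand, exons of Syn3, a synapsin gene, overlap 21.28% of the exonic bases of Timp3, and it is not stated whether the counting used strand. Syn3 itself was at 4.15 to 8.48 CPM in saline and 5.12 to 7.18 CPM in rIL-31 libraries.

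The remaining inhibitors did not pass the test. Timp2, the inhibitor that takes part in the activation of MMP2 at the cell surface, was at 321, 344 and 342 CPM in saline and 278, 282 and 339 CPM in rIL-31 libraries, so the groups overlapped (log2 fold change -0.16, SE 0.11, FDR 0.4599). Without rIL-31 replicate 3 it passed (log2 fold change -0.26, FDR 0.0654), and without any 1 of the other 5 libraries the FDR was 0.5213 to 0.7516. It also passed with the replicate number as a block and offsets for GC content and length together (log2 fold change -0.28, FDR 0.09474). Timp4 was near the lower end of what could be tested, with 0.867 to 1.26 CPM in saline and 0.719 to 1.05 CPM in rIL-31 libraries.

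Per unit of length of the longest annotated transcript, Timp2 had the highest mean share in saline-treated skin and Timp3 in rIL-31-treated skin. By CPM per kilobase of the longest annotated transcript (RPKM), Timp2 made up 49.7% ± 2.29 (SD, n = 3) of the summed Timp level in saline-treated skin and 32.5% ± 1.68 (SD, n = 3) in rIL-31-treated skin. Timp1 went from 11.0% ± 0.499 to 26.6% ± 5.95 (SD, n = 3) of that sum, and Timp3 from 39.2% ± 2.76 to 40.8% ± 5.08 (SD, n = 3). These shares depend on which transcript length is used for each gene.

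Mmp12 showed the largest fall. It encodes macrophage elastase, an enzyme that cuts elastin and is made mainly by macrophages, and lies on chromosome 9 from 7344397 to 7360461. It was at 52.7, 55.3 and 55.7 CPM in saline libraries and at 8.33, 11.9 and 11.3 CPM in rIL-31 libraries. The controls lay within a narrow band, and no treated library came near it. The log2 fold change was -2.38 (SE 0.15), or 0.193 of the saline level, with an FDR of 1.524e-05, and it ran from -2.48 to -2.24 as each library was left out.

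Macrophage markers were examined beside this fall. Of the 7 on the list, among them Adgre1, Csf1r, Cd68, Mrc1, C1qa and Cd163, 1 rose and none fell by edgeR (0 lower at an unadjusted p below 0.05 and 0 by DESeq2), and their summed level was 982 to 1028 CPM in saline and 948 to 1064 CPM in rIL-31 libraries, so the groups overlapped. Mrc1, the mannose receptor, had the lowest log2 fold change at -0.25 (FDR 0.2999). It was at 328, 319 and 302 CPM in saline and 220, 298 and 279 CPM in rIL-31 libraries, so every treated library lay below every control. The marker that rose stood apart in the other direction. Csf1r, the receptor that macrophages need to survive, was at 151 to 174 CPM in saline and 147 to 169 CPM in rIL-31 libraries. Exons of Mmp12 and of Mmp1b, on the opposite strand, share 157 bases, which is 2.17% of the exonic bases of Mmp12, and Mmp1b had at most 22 counts in any library.

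The stromelysins are MMPs of broad action that cut proteoglycans, fibronectin and laminins and can activate other MMPs. Mmp10 (stromelysin-2), which epidermal keratinocytes make at wound edges, was at 5.21, 6.50 and 4.75 CPM in saline and 13.7, 14.3 and 9.68 CPM in rIL-31 libraries. All treated libraries exceeded all controls, with rIL-31 replicate 3 the lowest of the treated. Its log2 fold change was 1.19 (SE 0.22, FDR 0.01109), a 2.28-fold rise.

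Mmp3 (stromelysin-1), more a product of dermal fibroblasts, was the more abundant of the pair. It was at 64.1, 69.2 and 65.3 CPM in saline and 94.6, 82.3 and 88.7 CPM in rIL-31 libraries, a log2 fold change of 0.42 (SE 0.10, FDR 0.0463). The groups stood apart. Without saline replicates 1, 2 and 3 the FDR was 0.1804, 0.1899 and 0.204 and without rIL-31 replicate 1 it was 0.1358, while the log2 fold change in these fits ran from 0.37 to 0.45. Mmp11 (stromelysin-3), which shares the name but little of the activity, was at 21.02 to 25.32 CPM in saline and 13.3 to 19.4 CPM in rIL-31 libraries. Its groups stood apart in the other direction, with a log2 fold change of -0.40 (SE 0.17) that did not pass (FDR 0.2321), though it did when offsets for GC content and length were added (log2 fold change -0.54, FDR 0.05145).

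Mmp10 and Mmp3 are close relatives, and reads from stretches that are the same in both cannot be assigned by sequence. Their coding sequences are 80.45% identical, and 202 of the windows of 31 bases in Mmp10, 11.94% of all its windows, occur also in Mmp3. The longest identical run is 104 bases, coding bases 265 to 368 of Mmp10 and 271 to 374 of Mmp3. It is shown because it holds the cysteine switch, the propeptide motif that keeps the enzyme inactive, whose 21 bases are in capitals. It runs from exon 2 into exon 3 of the 10 exons of Mmp10 (chr9:7503305-7503498, plus strand, GRCm38, GENCODE M21, intron left out).
Mmp10 and Mmp3 shared run: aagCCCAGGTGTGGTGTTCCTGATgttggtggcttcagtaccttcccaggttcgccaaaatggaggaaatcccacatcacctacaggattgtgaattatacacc

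The sum of the pair does not depend on which of them a shared read was given to, provided that it was counted once, which is not stated. Of the 258 windows of Mmp3 that occur in another gene, 202 are those shared with Mmp10. The sum of both was 69.3, 75.7 and 70.0 CPM in saline and 108, 96.6 and 98.4 CPM in rIL-31 libraries. Mmp10 made up 7.51%, 8.60% and 6.79% of that sum in the controls and 12.7%, 14.8% and 9.83% in the treated libraries. Both the sum and the Mmp10 share were higher in every treated library than in every control, and the share, unlike the sum, does depend on the assignment.

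Mmp12, Mmp3 and Mmp10 belong to a row of 10 MMP genes on chromosome 9 that spans 427 kb. In order they are Mmp13, Mmp12, Mmp1b, Mmp3, Mmp1a, Mmp10, Mmp8, Mmp27, Mmp20 and Mmp7. Within the row, Mmp3 and Mmp10 rose, Mmp12 fell, 4 did not pass and 3 were too low to test. Mmp13, the main interstitial collagenase of mice, was at 10.8, 10.1 and 12.2 CPM in saline and 13.5, 11.2 and 17.4 CPM in rIL-31 libraries, and its groups overlapped (log2 fold change 0.34, SE 0.19, FDR 0.3593). Mmp8, the collagenase stored by neutrophils, was at 0.997 to 1.77 CPM in saline and 1.13 to 2.50 CPM in rIL-31 libraries, and Mmp27 at 7.27 to 8.54 and 4.04 to 7.15 CPM, neither past the test. Mmp20, the enamel protease, was at 0.336 to 1.05 CPM over all libraries.

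The collagenases Mmp1a and Mmp1b, which are 90.63% identical in coding sequence, and the matrilysin Mmp7 were too low to test. For Mmp1b, the saline libraries held 0, 0 and 2 counts and the rIL-31 libraries 12, 2 and 22. Mmp1a had 5 counts in rIL-31 replicate 3 and none elsewhere. No count of Mmp7 was found in any library, and a count of 0 allows up to 0.117 to 0.140 CPM (3 counts, counting error only). With no filter on low counts, Mmp1b had an FDR of 0.2366. It was kept in 4 of the fits that left out a library, with an FDR of 0.2191 to 0.425 without a saline library and 0.09628 without rIL-31 replicate 2, the treated library with the fewest counts, and 2 counts in all stand behind the saline value.

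**Figure D2:**
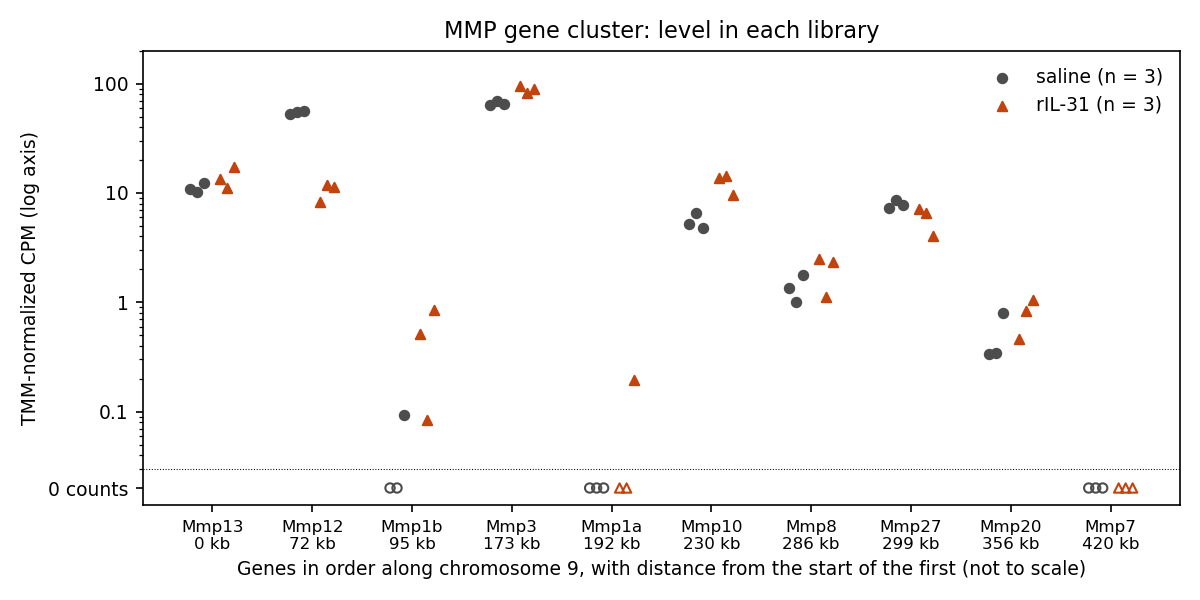
Level of the 10 MMP genes of chromosome 9 in each library, in TMM-normalized CPM on a log axis, in their order along the chromosome with the distance of each from the start of Mmp13. Open symbols below the dotted line are libraries with 0 counts. The saline circles of Mmp12 lie at 52.7 to 55.7 CPM and its rIL-31 triangles at 8.33 to 11.9, while the triangles of Mmp3 and Mmp10 lie above their circles.

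The promoters of Mmp10, Mmp3 and Mmp12 are shown because these genes of 1 row moved in opposite directions, with Mmp1b lying between Mmp12 and Mmp3 and Mmp1a between Mmp3 and Mmp10. Each window holds the 250 bases before the annotated start, from RefSeq (GRCm38.p6), 5′ to 3′ on the plus strand, with matches to the AP-1 motif TGANTCA in capitals. AP-1 factors (Fos and Jun dimers) are known regulators of several MMP genes. The windows are chr9:7502092-7502341 for Mmp10, chr9:7445572-7445821 for Mmp3 and chr9:7344147-7344396 for Mmp12. The window of Timp1, at chrX:20869916-20870165, is added because this gene had the largest rise.
Mmp10: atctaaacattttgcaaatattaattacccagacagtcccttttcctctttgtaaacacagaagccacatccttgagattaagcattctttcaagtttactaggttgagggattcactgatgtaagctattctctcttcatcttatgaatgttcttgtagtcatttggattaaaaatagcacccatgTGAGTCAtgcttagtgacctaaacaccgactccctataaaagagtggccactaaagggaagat
Mmp3: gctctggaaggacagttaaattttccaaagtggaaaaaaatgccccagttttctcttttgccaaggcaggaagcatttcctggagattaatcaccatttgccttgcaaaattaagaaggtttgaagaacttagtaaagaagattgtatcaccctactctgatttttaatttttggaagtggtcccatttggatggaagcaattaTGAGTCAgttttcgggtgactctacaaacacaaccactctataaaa
Mmp12: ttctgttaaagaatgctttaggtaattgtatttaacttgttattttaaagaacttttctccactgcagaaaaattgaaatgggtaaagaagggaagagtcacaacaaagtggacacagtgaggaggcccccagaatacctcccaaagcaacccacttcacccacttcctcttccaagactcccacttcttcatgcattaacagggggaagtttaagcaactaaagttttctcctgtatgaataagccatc
Timp1: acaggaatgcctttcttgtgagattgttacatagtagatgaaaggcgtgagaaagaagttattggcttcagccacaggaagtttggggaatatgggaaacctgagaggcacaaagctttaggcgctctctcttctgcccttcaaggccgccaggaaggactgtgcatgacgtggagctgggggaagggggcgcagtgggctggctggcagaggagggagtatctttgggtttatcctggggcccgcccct

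In the windows of Mmp10 and Mmp3 the match begins 63 and 46 bases before the start, and those of Mmp12 and Timp1 hold none. A window was found for 36 of the 51 members. Of these, 7 (19.4%) had a match to TGANTCA, beside 6.18% of the 17492 protein-coding promoters searched in the same way on both strands. The 7 were Mmp10, Mmp3, Mmp13, Mmp1a, Mmp1b, Mmp20 and Mmp7, all in the row on chromosome 9. Of the members that rose, 5 had a window and 2 a match, and of the 4 that fell, each with a window, none had a match. Matches were also found in 2 of the 22 windows of members that did not pass and 3 of the 5 of members not tested. The STAT motif TTCNNNGAA was found in 0 of the 36 windows, beside 6.65% of all promoters. The ETS motif AGGAAG was in 13 of 36, beside 28.2%, and the TATA box TATAAA in 10 of 36, beside 12.4%. The TATA box match began 29 bases before the annotated start of Mmp10 and 7 before that of Mmp3. The distances of their AP-1 matches are thus not counted from starts placed alike. These motifs do not contain each other. A match is a run of letters, and binding was not measured.

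The gelatinases cut denatured collagen and the type IV collagen of basement membranes. Mmp2, made mainly by fibroblasts, was at 265.0, 256.4 and 230.6 CPM in saline and 323, 353 and 288 CPM in rIL-31 libraries. The groups stood apart, and the log2 fold change of 0.36 (SE 0.11) was just outside the threshold with an FDR of 0.1024. It passed with DESeq2 (FDR 0.04071) and without rIL-31 replicate 3 (log2 fold change 0.43, FDR 0.01295), but had an FDR of 0.1937 to 0.3768 without any 1 of the other 5 libraries. With offsets for GC content and length, its log2 fold change was 0.23 (FDR 0.1698). Mmp9, the gelatinase of neutrophils and other immune cells and of migrating keratinocytes, was at 20.7 to 21.4 CPM in saline and 23.1 to 28.9 CPM in rIL-31 libraries. Its groups also stood apart, with a log2 fold change of 0.32 (SE 0.13, FDR 0.2099), and it passed without rIL-31 replicate 3 (0.40, FDR 0.05345).

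The membrane-type MMPs sit on the cell surface, and none of the 6 passed edgeR's test, where 1 had an unadjusted p below 0.05 and DESeq2 called 0. Mmp14, the activator of MMP2, had the highest level per length of all MMPs in saline-treated skin. It was at 316, 344 and 365 CPM in saline and 272, 283 and 359.8 CPM in rIL-31 libraries, with rIL-31 replicate 3 among the controls and the other 2 below them (log2 fold change -0.17, SE 0.13, FDR 0.5266). Without rIL-31 replicate 3 it passed, at a log2 fold change of -0.30 (FDR 0.05162), and without any 1 of the other 5 libraries the FDR was 0.5156 to 0.8221. Mmp25, a leukocyte enzyme, had the largest log2 fold change of the class at 0.92 (SE 0.38, FDR 0.2161), with 2.05 to 4.79 CPM in saline and 3.69 to 9.31 CPM in rIL-31 libraries. It passed without rIL-31 replicate 3 (log2 fold change 1.20, FDR 0.02918). Mmp15, Mmp16, Mmp17 and Mmp24 had overlapping groups and log2 fold changes from -0.58 to 0.37.

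Of the other MMPs, Mmp19 rose. It encodes a secreted enzyme found in basal keratinocytes and vessels that cuts basement membrane proteins. Mmp19 was at 94.5, 84.2 and 78.9 CPM in saline and 145, 141 and 127 CPM in rIL-31 libraries, so the groups did not meet. Its log2 fold change was 0.68 (SE 0.11, FDR 0.006004). Exons of Tmem198b, on the opposite strand, overlap 22.33% of the exonic bases of Mmp19. Tmem198b was at 16.96 to 23.69 CPM in saline and 26.6 to 30.2 CPM in rIL-31 libraries and did not pass (log2 fold change 0.42, FDR 0.1486). Mmp28 (epilysin), an MMP of keratinocytes, was at 2.73 to 3.86 CPM in saline and 4.004 to 5.555 CPM in rIL-31 libraries (log2 fold change 0.53, SE 0.28, FDR 0.3283). Exons of 1700020L24Rik, on the opposite strand, overlap 12.03% of the exonic bases of Mmp28. That gene was at 2.95 to 4.49 CPM in saline and 3.65 to 10.4 CPM in rIL-31 libraries (log2 fold change 0.81, FDR 0.2839). Mmp23 was at 5.21 to 6.11 and 5.14 to 6.26 CPM with a log2 fold change of 0.01 (SE 0.21), and Mmp21 was too low to test, with at most 0.501 CPM.

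Keratinocyte markers were higher in the same libraries. Of Krt5, Krt14, Krt1, Krt10 and Krt15, 4 rose and Krt15 did not pass, and their summed level was 7329 to 8039 CPM in saline and 11453 to 15689 CPM in rIL-31 libraries, with rIL-31 replicate 3 the lowest of the treated. None of the 6 fibroblast markers (Pdgfra, Col1a1, Col1a2, Dcn, Lum and Dpt) was called in either direction by edgeR (0 at an unadjusted p below 0.05 and 0 by DESeq2), and their sum was 7622 to 7729 and 7579 to 7945 CPM. Of 6 neutrophil markers, Csf3r rose, with a log2 fold change of 0.64 (FDR 0.02772), Cxcr2 did not pass, and the granule genes Mpo, Elane, Camp and Ngp had at most 1.10 CPM in any library. The neutrophil sum was 72.1 to 95.5 CPM in saline and 95.9 to 118 CPM in rIL-31 libraries. Of the other cell types, all 4 melanocyte markers fell, with a sum of 441 to 473 CPM in saline and 198 to 203 CPM in rIL-31 libraries, and 2 of 4 mast cell markers rose (179.7 to 185 and 225 to 253 CPM). Of 4 skeletal muscle markers Myh4, a fast myosin heavy chain, fell, with a log2 fold change of -1.31 (FDR 0.02474), and the muscle sum was 3372 to 3619 CPM in saline and 2411 to 2928 CPM in rIL-31 libraries. Of 6 hair follicle markers Msx2 fell, with a log2 fold change of -0.64 (FDR 0.04205), and the follicle sum was 9010 to 10167 CPM in saline and 7790 to 10639 CPM in rIL-31 libraries. The eosinophil markers Siglecf and Ccr3 rose. For Siglecf the controls held only 3, 6 and 2 counts, all under the filter's minimum of 10, against 32, 32 and 50 after rIL-31. The size of its rise thus rests on few control counts. Prg2, a further eosinophil marker, was too low to test (2, 2 and 1 counts without the cytokine, 7, 18 and 7 with it). Epx, a granule gene of that cell type, had no count. None of the 4 endothelial, 4 adipocyte and 4 smooth muscle and pericyte markers was called in either direction by edgeR. Of the smooth muscle and pericyte markers, 1 was lower at an unadjusted p below 0.05 and 1 by DESeq2. For the endothelial and adipocyte markers these counts were 0. The part of these cell types in the changes of the 11 members that rose or fell was not tested.

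The proteoglycan-cleaving ADAMTS proteases cut versican and aggrecan, large proteoglycans that hold water in the matrix. Of these 7 genes, 2 rose, 1 fell and 4 did not pass. Adamts1 was the most abundant of them per length and was at 68.75, 75.005 and 77.55 CPM in saline and 123, 98.3 and 133 CPM in rIL-31 libraries. The groups did not overlap, and the log2 fold change was 0.68 (SE 0.13, FDR 0.01314). Adamts15 was at 28.6, 29.9 and 24.7 CPM in saline and 49.0, 61.2 and 57.5 CPM in rIL-31 libraries, a 2.01-fold rise with a log2 fold change of 1.01 (SE 0.13, FDR 0.00178). All treated libraries of Adamts15 were far above the highest control.

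Adamts9, an enzyme that cuts versican and is needed for the clearing of matrix in development, went the other way. It was at 32.29, 28.01 and 27.08 CPM in saline and 16.6, 23.9 and 19.2 CPM in rIL-31 libraries, with a log2 fold change of -0.55 (SE 0.16, FDR 0.08003). Although the groups did not overlap, the call was lost without saline replicates 1, 2 and 3 (FDR 0.2571, 0.2403 and 0.1803), without rIL-31 replicate 1 (0.2099) and with the offsets for GC content and length (log2 fold change -0.41, FDR 0.1248). In the fits without a library that lost it, the log2 fold change ran from -0.60 to -0.44. On the opposite strand, exons of A730049H05Rik and Gm15737 overlap 9.18% and 2.82% of the exonic bases of Adamts9. Levels of those genes are not given here.

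The other 4 of the class were Adamts4, Adamts5, Adamts8 and Adamts20. Adamts5, the main aggrecanase of mouse cartilage, was at 50.1, 48.0 and 58.7 CPM in saline and 61.5, 58.5 and 58.0 CPM in rIL-31 libraries (log2 fold change 0.18, FDR 0.4288), and after the GC and length correction its log2 fold change was 0.49 with an FDR of 0.04827. Adamts4 had a log2 fold change of 0.13 (FDR 0.7111) and Adamts20, known from a coat-spotting mouse mutant, of -0.18 (FDR 0.5979), both with overlapping groups. Adamts8 was at 0.378 to 0.910 CPM in saline and 0.762 to 1.63 CPM in rIL-31 libraries. In both neighbouring pairs of ADAMTS genes, Adamts1 with Adamts5 on chromosome 16 (55.0 kb apart) and Adamts15 with Adamts8 on chromosome 9 (20.1 kb apart), 1 gene rose and its neighbour did not pass.

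The procollagen ADAMTS proteases remove the amino-terminal propeptide of fibrillar collagens, and none of the 3 passed edgeR's test, where 0 had an unadjusted p below 0.05 and DESeq2 called 0. Adamts2, the most abundant ADAMTS gene per length in saline-treated skin, was at 142, 133 and 130 CPM in saline and 157, 171 and 137 CPM in rIL-31 libraries (log2 fold change 0.20, SE 0.11, FDR 0.3574). It passed without rIL-31 replicate 3 (log2 fold change 0.28, FDR 0.06412), and without any 1 of the other 5 libraries the FDR was 0.4331 to 0.702. Adamts14 had overlapping groups, and Adamts3 was at 5.12 to 5.42 CPM in saline and 3.17 to 4.32 CPM in rIL-31 libraries, apart but not past the test (log2 fold change -0.45, FDR 0.3337).

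Among the remaining 9 ADAMTS genes, 8 were tested, 2 fell and none rose by edgeR (0 higher at an unadjusted p below 0.05 and 0 by DESeq2). Adamts12, whose protease cuts the cartilage protein COMP and which lies on chromosome 15 from 11064773 to 11349232, was at 19.9, 21.7 and 20.2 CPM in saline and 6.90, 6.89 and 8.55 CPM in rIL-31 libraries. The replicates of each group were close together and the groups far apart. Its log2 fold change was -1.47 (SE 0.16, FDR 0.00052), or 0.362 of the saline level. Adamts18 was at 16.1, 16.6 and 16.6 CPM in saline and 10.28, 12.03 and 8.436 CPM in rIL-31 libraries, with a log2 fold change of -0.68 (SE 0.17, FDR 0.04542). That call was lost without saline replicates 1, 2 and 3 (FDR 0.1271, 0.1938 and 0.1679) and without rIL-31 replicate 1 (0.1149), while the log2 fold change in these fits ran from -0.70 to -0.68.

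Adamts10, the most abundant of these 9 per length and a protein of fibrillin microfibrils, was at 19.8, 18.1 and 16.3 CPM in saline and 19.2, 19.2 and 13.8 CPM in rIL-31 libraries (log2 fold change -0.06, FDR 0.8961). Adamts6, Adamts7, Adamts16, Adamts17 and Adamts19 had overlapping groups and did not pass, with log2 fold changes from -0.75 to 1.35, the highest being that of Adamts16 at 0.0867 to 1.38 CPM. Adamts13, the protease of von Willebrand factor, which is made in the liver, had at most 0.336 CPM and was not tested.

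The ADAMTS-like proteins lack the protease domain and bind to microfibrils, and none of the 5 passed edgeR's test, where 3 had an unadjusted p below 0.05 and DESeq2 called 0. Adamtsl5, with the highest of the saline levels per length, was at 23.4, 22.5 and 20.9 CPM in saline and 23.0, 26.5 and 16.6 CPM in rIL-31 libraries (log2 fold change -0.02, FDR 0.9738). Adamtsl1 and Adamtsl4 were higher in every treated library, with log2 fold changes of 0.36 (FDR 0.2052) and 0.43 (FDR 0.1807). Adamtsl4 passed without rIL-31 replicate 3 (log2 fold change 0.48, FDR 0.08395). Adamtsl2 was lower in every treated library, at 1.13 to 1.72 CPM in saline and 0.585 to 0.719 CPM in rIL-31 libraries (log2 fold change -1.11, SE 0.49, FDR 0.2421). Adamtsl3 had overlapping groups.

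**Figure D3:**
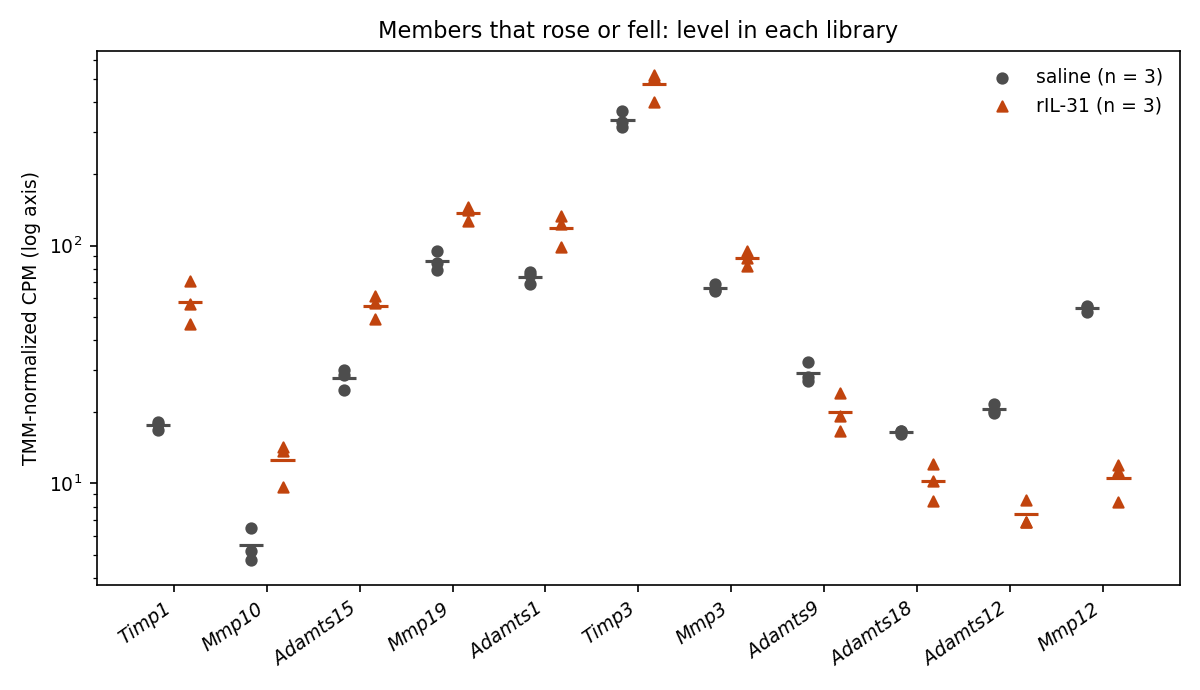
Level of the 11 genes that rose or fell, in TMM-normalized CPM on a log axis, with 1 symbol for each library and a bar at the mean of each group of 3. For each gene the rIL-31 triangles and the saline circles do not overlap. The distance is widest for Mmp12 and Timp1 and narrowest for Timp3, Mmp3 and Adamts9.

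Compared per unit of length, the MMP genes were led by the same pair in both groups. Mmp14 made up 35.2% ± 2.60 and Mmp2 27.2% ± 1.88 (SD, n = 3) of the summed MMP level by RPKM in saline-treated skin, and 28.1% ± 4.49 and 31.2% ± 2.96 (SD, n = 3) in rIL-31-treated skin. Mmp12 fell from 4.07% ± 0.116 to 0.701% ± 0.124 (SD, n = 3) of that sum and Mmp10 went from 1.06% ± 0.162 to 2.18% ± 0.429 (SD, n = 3). Among the ADAMTS genes, Adamts2 and Adamts1 held 26.5% ± 1.02 and 21.6% ± 1.56 in saline and 25.6% ± 2.51 and 29.1% ± 4.63 (SD, n = 3) in rIL-31 libraries. Adamts15 went from 6.67% ± 0.575 to 11.3% ± 1.24 and Adamts12 from 3.42% ± 0.160 to 1.04% ± 0.144 (SD, n = 3).

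The summed MMP level by RPKM was 298, 304 and 297 in the saline and 333, 338 and 334 in the treated libraries. The summed TIMP level was 184, 184 and 179 in the saline and 241, 238 and 266 in the treated libraries. Both sums were higher in every treated library. Their ratio, MMP over TIMP, was 1.62, 1.66 and 1.66 in the saline and 1.38, 1.42 and 1.25 in the treated libraries and so was lower in every treated library. By CPM, not scaled by length, the ratio was 1.27, 1.32 and 1.33 in the saline and 1.29, 1.18 and 1.07 in the treated libraries, and the groups overlapped. The ratio counts transcripts per length of active and inactive enzymes alike and is given as a description without a test.

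**Figure D4:**
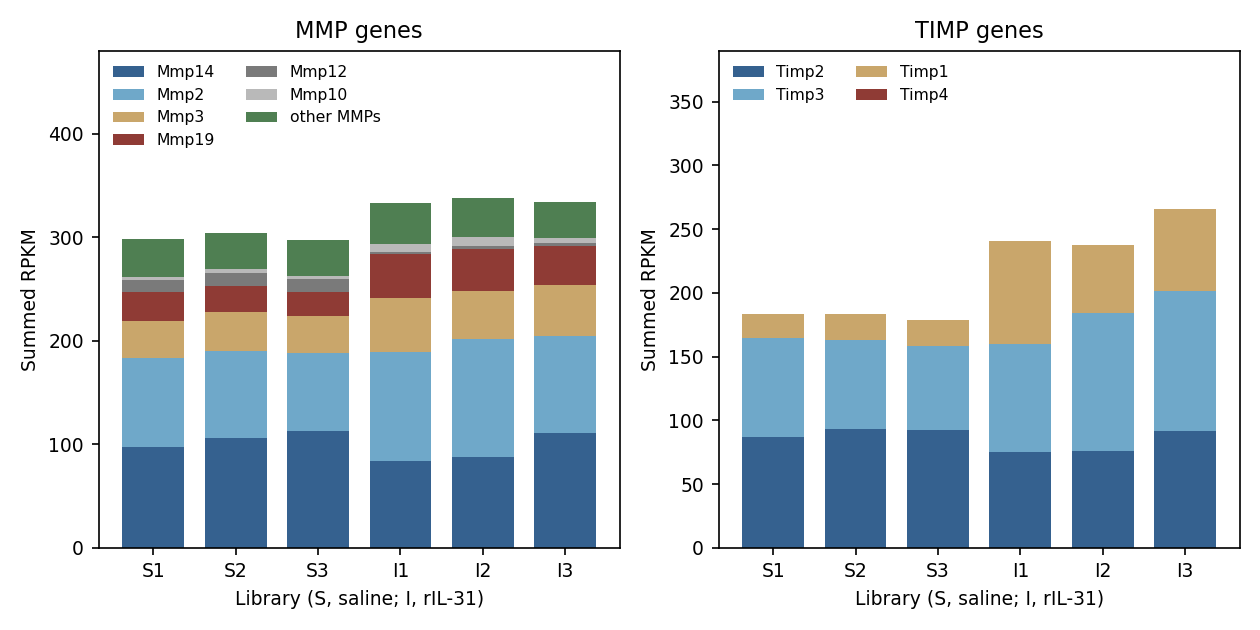
Summed level per length (RPKM) of the MMP genes on the left and the TIMP genes on the right in each library (S1 to S3 saline, I1 to I3 rIL-31), stacked by gene. The MMP bars reach 297 to 304 in saline and 333 to 338 in rIL-31 libraries, and the TIMP bars 179 to 184 and 238 to 266, and by the group means Timp1 is the part that grew most. Timp4 is too low to see.

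Leaving out each library in turn kept some of the 11 calls and lost others. Mmp12, Timp1, Adamts12, Adamts15, Mmp19, Mmp10 and Adamts1 passed in 6 of 6 fits. Their highest FDR was 0.0003162 for Mmp12, 0.002183 for Timp1, 0.007142 for Adamts12, 0.01724 for Adamts15, 0.06455 for Mmp19, 0.06564 for Mmp10 and 0.08837 for Adamts1. Timp3 passed in 3 of 6 fits and Mmp3, Adamts18 and Adamts9 in 2 of 6. A fit of 5 libraries also has fewer samples, and the count of genes called over the whole table moved as well, from 739 up and 610 down to 246 and 171 without saline replicate 2 and to 2050 and 1968 without rIL-31 replicate 3.

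**Figure D5:**
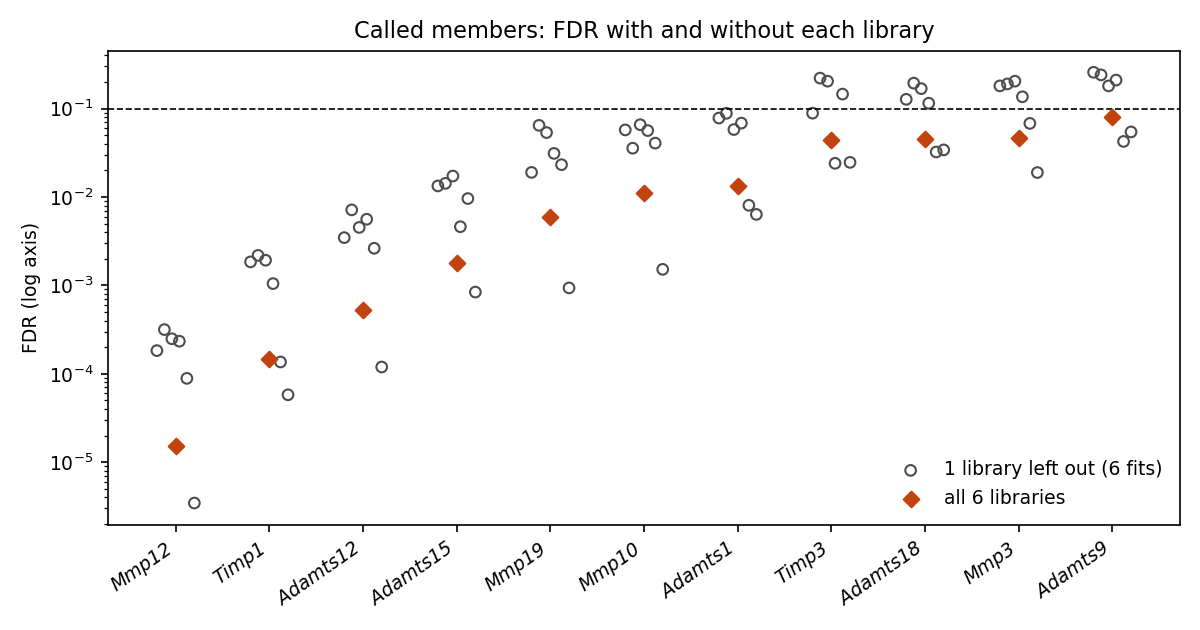
FDR of the 11 genes that rose or fell, on a log axis, with all 6 libraries (diamonds) and with each library left out in turn (open circles, 6 fits for each gene). The dashed line is the threshold of 0.1. All circles of the 7 genes on the left lie below the line, and those of Timp3, Adamts18, Mmp3 and Adamts9 lie on both sides of it.

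Genes that act on these enzymes or share their substrates were examined from 3 lists. The lists were chosen with earlier results of these data known. Of 21 activators and inhibitors, 17 were tested, 5 rose (29.4%) and none fell by edgeR (0 lower at an unadjusted p below 0.05 and 0 by DESeq2), and their median log2 fold change was 0.24. Of all tested genes, 4.51% rose and 3.73% fell. Serpina3n, a serine protease inhibitor, was at 91.0, 94.1 and 95.4 CPM in saline and 417, 351 and 282 CPM in rIL-31 libraries, a log2 fold change of 1.90 (SE 0.14, FDR 3.428e-05). Lcn2, whose protein binds MMP9 and keeps it stable, had a log2 fold change of 1.78 (SE 0.25, FDR 0.002826), and Serpinb2, an inhibitor of plasminogen activators, of 0.76 (SE 0.16, FDR 0.02611). Plau, the urokinase that starts the plasmin route of MMP activation, also rose, with 0.42 (SE 0.11, FDR 0.0615). The call of Plau was lost without any 1 library other than rIL-31 replicate 3 (log2 fold change 0.35 to 0.49, FDR 0.1425 to 0.2383), and that of Serpinb2 without saline replicates 1 and 2 and rIL-31 replicate 1 (0.71 to 0.77, FDR 0.1009 to 0.1392).

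Of 19 other metzincins, the wider enzyme clan of the ADAM and astacin families, 15 were tested, 1 rose and 1 fell (6.67% each), and the median log2 fold change was 0.06. These shares stand beside 4.51% and 3.73% of all tested genes. Bmp1, the procollagen C-proteinase, was at 122, 113 and 109 CPM in saline and 191, 186 and 147 CPM in rIL-31 libraries (log2 fold change 0.60, SE 0.12, FDR 0.01952). Adam12 was at 52.8, 59.0 and 61.7 CPM in saline and 44.5, 35.5 and 45.2 CPM in rIL-31 libraries (log2 fold change -0.47, SE 0.13, FDR 0.07007). The call of Adam12 was lost with the GC and length offsets (log2 fold change -0.34, FDR 0.212) and without any 1 library other than rIL-31 replicate 3 (-0.53 to -0.38, FDR 0.1219 to 0.284), and that of Bmp1 without saline replicates 2 and 3 (0.59 and 0.57, FDR 0.1314 and 0.114). Adam22 at -0.77 (FDR 0.1862) and Adam9 at 0.24 (FDR 0.2523) did not pass.

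Of 23 matrix substrates, 22 were tested, 3 rose (13.6%, beside 4.51% of all tested genes) and 1 fell (4.55%, beside 3.73%). Their median log2 fold change was 0.10. Among those that rose were Col17a1, at 516, 491 and 436 CPM in saline and 998, 975 and 731 CPM in rIL-31 libraries (log2 fold change 0.91, FDR 0.003661), and Lamb3 at 0.85 (FDR 0.002249). Both encode parts of the anchoring structures of basal keratinocytes. Vcan, which encodes versican, the substrate of Adamts1 and Adamts9 products, was at 170, 159 and 168 CPM in saline and 124, 114 and 116 CPM in rIL-31 libraries, a log2 fold change of -0.49 (SE 0.10, FDR 0.01744). With the GC and length offsets the log2 fold change of Vcan was -0.16 (FDR 0.4568), and without saline replicate 3 it was -0.48 (FDR 0.1008). The fibrillar collagen genes Col1a1, Col1a2 and Col3a1 had log2 fold changes of -0.07, 0.0029 and 0.21 and did not pass. After the GC and length correction, 14 genes of the 3 lists rose in place of 9 and none fell in place of 2. Of all tested genes, 5.36% rose and 3.06% fell in that fit. Without rIL-31 replicate 3 the counts were 17 and 4, beside 12.3% and 11.8% of all tested genes. Without saline replicate 3 they were 7 and 0, beside 1.68% and 1.31%.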

How the data were processed

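Skin from 3 saline-treated and 3 rIL-31-treated samples was analysed by RNA-Seq. The authors deposited 1 table of raw read counts per gene by Entrez number, not normalized. According to the submitters' processing notes, bcl2fastq, CASAVA (version 1.8), TopHat, DESeq and the build mm10 were used, with no roles stated. The counting program, its annotation, and how strand and multi-mapped reads were treated were not given in the sources used here. Paralogs and overlapping genes are therefore uncertain.

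The counts were tested with edgeR 4.0.16 (R 4.3.3), by the quasi-likelihood test with TMM normalization, treatment as the only term, filterByExpr with a minimum count of 10 (16371 genes kept) and Benjamini-Hochberg adjustment over these genes. Names and positions came from RefSeq GRCm38.p6, and transcript lengths, GC content and exons from GENCODE M21. The 85 gene numbers without a name stayed in the library sizes. No pair of libraries was a duplicate (chi-square per degree of freedom 8.68 or more). The procedure was tried on simulated counts with set fold changes and no GC trend. That trial does not cover the GC differences between these libraries. Total counts were 21710679 to 25552684 per library, and intervals or limits from counts cover counting error only.

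The members and the gene lists were chosen with earlier results of these data known. Named with each library's value, or for Timp4 with a range, were the members at an FDR below 0.1, Mmp2, Mmp10 and Mmp12, the 4 Timp genes and the highest member per length of each class. Of each list, genes among the 4 with the smallest p were named, some by log2 fold change without library values. Plau, Col1a1, Col1a2 and Col3a1 were added. Mmp1a, Mmp1b, Mmp8, Mmp9, Mmp25, Adamts5 and the other members were added to account for all. Some genes of the lists are counted but not reported by name here. Alternatives were DESeq2 1.42.0, other normalizations and filters, the replicate number as a block, offsets for GC content and transcript length (99.1% of tested genes had both), each library left out, and other thresholds.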

Additional observations from a re-analysis of the deposited data

How the results depend on the processing

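The count of members that rose (7) was 7 to 10 with other normalizations, DESeq2, other filters, the replicate block and the GC and length offsets, and the count that fell (4) was 4 in each of these except 7 with the replicate block and GC and length offsets together. The shares of all tested genes moved as well. In the main fit 4.51% rose and 3.73% fell. These were 6.29% and 5.64% with DESeq2, 7.19% and 6.69% with the block, 5.36% and 3.06% with the offsets, and 7.54% and 4.83% with block and offsets. Past 2-fold, 3 members were higher and 2 lower. With each library left out, 5 to 12 members were higher and 2 to 6 lower, beside 1.47% to 12.3% and 1.02% to 11.8% of all tested genes. Genes of the 3 pathway lists that rose (9) numbered 14 with the GC and length offsets, 18 with these and the replicate block, and 6 to 17 with a library left out. Those that fell (2) numbered 4 with the replicate block, 0 with the GC and length offsets, 0 with both, and 0 to 4 with a library left out. Why they moved was not tested, other than that a fit of 5 libraries has fewer samples.

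Of 285 log2 fold changes of named members under an alternative, 254 kept their direction and their side of the threshold, 16 kept the direction but no longer passed, 10 passed where they had not, and 5 changed sign. The 5 belonged to 2 members near 0. Adamtsl5 was at 3e-04 with library size only, and from -0.1827 to 0.1512 with each library left out. Adamts10 was at -0.1453 to 0.0861 with each library left out.

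In the sources, samples with the same replicate number are linked by that number alone. Whether they also shared a day or batch is not stated. Their deviations from the group means had correlations of 0.08, -0.02 and 0.22 over all tested genes. Not every sample correlated best with its own number, since saline replicate 1 was closer to rIL-31 replicate 2 (0.15) and saline replicate 2 to rIL-31 replicate 3 (0.03). With the number as a replicate block, 1177 genes of the table rose and 1096 fell, in place of 739 and 610, and 9 members rose, with Mmp2 (FDR 0.04587) and Mmp25 (FDR 0.04849) added to the 7. Members near or under 1 CPM, such as Timp4, Mmp20, Adamts8 and Adamts16, were limited by depth.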
